A study of Mus musculus with 4 samples.

Results

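The genes described here are 8 small nucleolar RNA host genes, Gas5, Snhg1, Snhg3, Snhg5, Snhg6, Snhg8, Snhg11 and Snhg12, picked by their symbols from a table of 50593 mouse genes. RNA came from the sciatic nerve of 129S1/SvImJ mice aged 6 months, with 2 samples labelled HSF V30M TTR and 2 labelled HSF WT TTR. Per the study's methods, the HSF V30M mice carried a human TTR V30M transgene, lacked endogenous Ttr and had a heterozygous deletion of Hsf1, whereas the HSF WT mice, the controls, had the same Hsf1 deletion without the transgene. The promoter of the transgene and the sex of the mice are not given in the sources used here. By this description both groups carry the Hsf1 deletion. The deposited table holds 1 FPKM value (fragments scaled by transcript length and library depth) for each gene and group, so there is no replicate error. No difference below was tested against the spread between mice.

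Small nucleolar RNAs (snoRNAs) guide the chemical modification of ribosomal RNA. Those with C and D boxes direct 2′-O-methylation, those with an H box and an ACA box direct pseudouridylation, and a few help to cleave the ribosomal RNA precursor. In mammals most of them are cut from introns, and a host gene is the gene whose introns carry them. In the genes described here the spliced exons encode little or no protein. Several of the spliced host RNAs start with a run of pyrimidines, as the mRNAs of ribosomal proteins do, and are degraded when ribosomes reach their early stop codons, by nonsense-mediated decay. Gas5 was named for its accumulation in growth-arrested cells.

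The stretch around the start of each host gene is shown because such RNAs are known for their pyrimidine-rich starts. The windows run from 50 bases before the RefSeq start to base 30 of the transcript, are written 5′ to 3′ on the gene's strand, and come from RefSeq on GRCm38.p6. Capitals mark TATA lying 20 to 40 bases before the start and the longest run of at least 6 C or T touching the stretch from 5 bases before the start to base 10. A window was found for 7 of the 8 genes, and Snhg6 is named only.
Gas5 (chr1:161035116-161035195, plus strand): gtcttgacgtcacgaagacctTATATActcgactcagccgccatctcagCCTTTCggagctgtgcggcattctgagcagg
Snhg1 (chr19:8723437-8723516, plus strand): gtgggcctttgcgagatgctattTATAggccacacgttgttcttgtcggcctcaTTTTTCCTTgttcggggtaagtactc
Snhg5 (chr9:88522868-88522947, minus strand): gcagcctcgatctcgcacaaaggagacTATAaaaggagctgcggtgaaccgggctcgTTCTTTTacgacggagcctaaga
Snhg8 (chr3:123508307-123508386, minus strand): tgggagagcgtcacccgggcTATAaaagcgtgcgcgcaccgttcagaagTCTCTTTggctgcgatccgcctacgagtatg
Snhg12 (chr4:132308628-132308707, plus strand): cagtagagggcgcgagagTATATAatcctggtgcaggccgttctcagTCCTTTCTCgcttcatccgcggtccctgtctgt
Snhg3 (chr4:132353657-132353736, minus strand): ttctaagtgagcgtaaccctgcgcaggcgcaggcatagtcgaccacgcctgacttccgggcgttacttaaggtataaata
Snhg11 (chr2:158375663-158375742, plus strand): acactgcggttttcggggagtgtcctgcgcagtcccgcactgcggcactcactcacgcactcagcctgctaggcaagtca

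Both marks were present in the same 5 genes, Gas5, Snhg1, Snhg5, Snhg8 and Snhg12. Searched on the gene's strand at the same places, TATA was found in 5.81% of the 32851 RefSeq promoters, such a run in 24.4%, and both in 1.57%. The places and the run length were chosen after the host gene sequences had been seen, so the 5 of 7 is a description. Neither mark was found at these places in Snhg3 and Snhg11. The Snhg3 window does hold TATA near its end, after the RefSeq start, where it was not searched for.

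The snoRNA genes chosen for display are Snord22, which had the most fragments in the group labelled HSF V30M, 4 inside Gas5 with wide gaps between the groups in either direction, 1 there with a narrow gap, the only snoRNA of Snhg8, and a near-identical pair listed at 0. Capitals mark the C box (TGATGA) and the D box (CTGA) where the exact letters are present, or ACA placed 3 bases from the end. All are spelled on their own strand from GENCODE M21 transcripts on GRCm38.
Gm26224, inside Gas5 (chr1:161035394-161035473, plus strand): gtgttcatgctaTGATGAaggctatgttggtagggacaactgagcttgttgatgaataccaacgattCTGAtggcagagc
Gm22489, inside Gas5 (chr1:161035850-161035911, plus strand): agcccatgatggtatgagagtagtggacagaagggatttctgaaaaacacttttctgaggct
Gm22357, inside Gas5 (chr1:161036057-161036139, plus strand): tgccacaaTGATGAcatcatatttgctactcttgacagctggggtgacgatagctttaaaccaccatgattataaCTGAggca
Mir5117, inside Gas5 (chr1:161037356-161037439, plus strand): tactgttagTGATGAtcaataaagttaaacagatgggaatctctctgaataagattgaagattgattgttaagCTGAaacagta
Snord47, inside Gas5 (chr1:161038082-161038158, plus strand): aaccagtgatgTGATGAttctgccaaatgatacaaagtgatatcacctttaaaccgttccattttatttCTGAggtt
Snord22, inside Snhg1 (chr19:8725866-8725991, plus strand): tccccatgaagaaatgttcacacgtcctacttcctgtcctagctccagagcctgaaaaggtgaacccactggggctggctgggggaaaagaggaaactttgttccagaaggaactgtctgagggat
Snora24, inside Snhg8 (chr3:123507937-123508066, minus strand): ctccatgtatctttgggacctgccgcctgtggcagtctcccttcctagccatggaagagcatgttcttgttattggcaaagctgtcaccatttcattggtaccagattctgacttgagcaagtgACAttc
Snord50a, inside Snhg5 (chr9:88521529-88521600, minus strand): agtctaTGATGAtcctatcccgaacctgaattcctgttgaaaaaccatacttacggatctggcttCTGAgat
Snord50b, inside Snhg5 (chr9:88521797-88521868, minus strand): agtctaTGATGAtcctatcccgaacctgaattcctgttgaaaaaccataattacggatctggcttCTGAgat

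Of the 31 snoRNA genes inside the 8 host genes, 17 held both exact boxes, 6 ended with ACA at that place, and 8 had neither in these exact letters. Snord22 is among the last. Snord50a and Snord50b differ at 1 of 72 bases.

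A check of the labels came first. Hsf1 stood at 7.94 FPKM in the group labelled HSF V30M and 14.95 FPKM in the group labelled HSF WT, a log2 ratio of -0.84 between groups described as carrying the same deletion. Whether Hsf1 dosage differed between them was not tested. Mouse Ttr was listed at 6.10 FPKM for the group labelled HSF V30M, described as null for the mouse gene, and at 0 in the group labelled HSF WT. Read as the mouse gene, the Ttr values go against the described genotypes. The table does not say whether reads of the human transgene were counted there, so these values do not settle the labels. Directions below follow the labels as given. The single-fragment values of genes with a single annotated transcript gave the relative depth of the libraries. They were read over a different range of gene lengths in each group. Depth differed 1.18-fold within the group labelled HSF V30M and 1.35-fold within the group labelled HSF WT. Schwann cell markers, the defining genes of the tissue, were present in both groups, with Prx, a protein of myelinating Schwann cells, at 899.9 and 730.0 FPKM and the transcription factor gene Sox10 at 75.7 and 54.8 FPKM.

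Host RNA levels were higher in the group labelled HSF V30M for 6 of the 8 genes and lower for 2. Over all 15620 genes with a mean of at least 1 FPKM these shares were 50.4% and 49.6%, and over 878 other long non-coding genes 55.8% and 44.2%. Summed over the 8 genes they stood at 1595 FPKM in the group labelled HSF V30M and 596 FPKM in the group labelled HSF WT, a 2.68-fold difference. Snhg1 made up 79.2% and 62.8% of these sums, and without it they were 332 and 222 FPKM, a 1.496-fold difference. Differences are given as log2 ratios of (FPKM + 1), the group labelled HSF V30M over the group labelled HSF WT, which understate the difference of low genes. On that scale 4 genes passed a 1.5-fold limit upwards, Snhg1, Snhg11, Gas5 and Snhg3. Among the 15620 genes the share past that limit upwards was 8.22%, and among the other long non-coding genes it was 13.4%. Downwards, 1 gene passed it, Snhg5, against 8.44% of all genes and 10.8% of the other long non-coding genes. The median log2 ratio of the 8 genes was 0.56, against 0.0030 over all 15620.

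**Figure D1:**
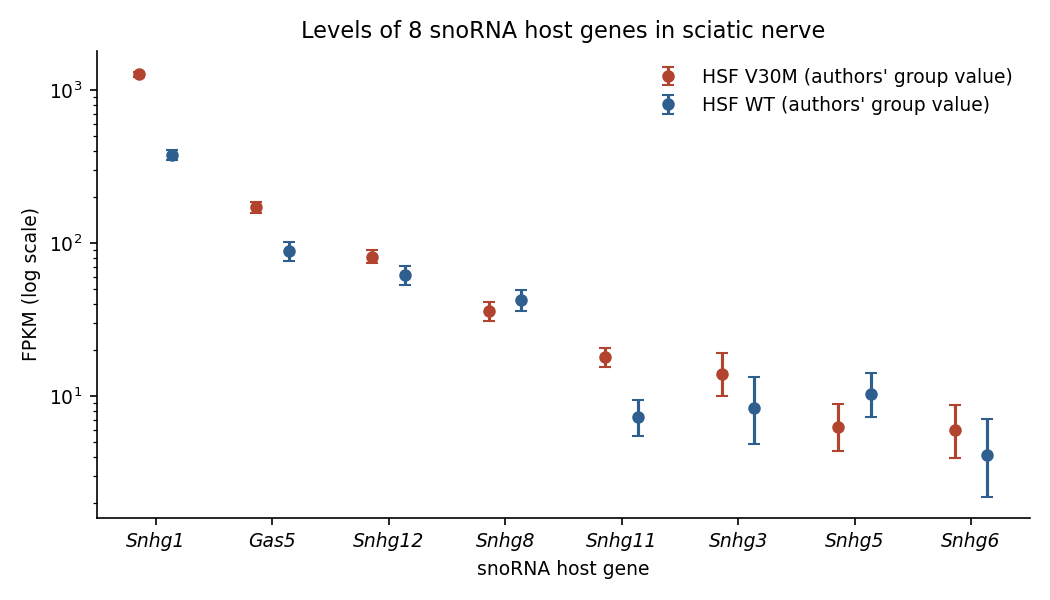
Level of each host gene in FPKM (log scale) in the groups labelled HSF V30M and HSF WT, 1 deposited value per group, with bars for 95% counting intervals (counting error only). Snhg1 is the highest in both groups (1263 and 374 FPKM) and Snhg6 the lowest (6.00 and 4.14 FPKM).

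Snhg1, the host gene of Snord22 (U22), lies on chromosome 19 (chr19:8723475-8726443, plus strand). Its level was 1263 FPKM in the group labelled HSF V30M and 374 FPKM in the group labelled HSF WT. The log2 ratio of 1.75 was the largest of the 8 and stood at percentile 97.9 of all genes. The ratio of the levels was 3.37, with a 95% counting interval of 3.10 to 3.67. Such intervals come from the lowest number of fragments that could give the value and cover counting error only, not the spread between mice. Within its 18 annotated transcripts, 312 to 2728 bases long, 14 are of the retained-intron type. Slc3a2, a subunit of amino acid transporters, starts 106 bases away on the other strand, and its level was 212 FPKM against 242 FPKM.

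Gas5 (chr1:161034422-161038539, plus strand) was the second highest of the 8 in both groups. It stood at 171 FPKM in the group labelled HSF V30M and 88.2 FPKM in the group labelled HSF WT. The log2 ratio was 0.94, percentile 95.8, and the ratio of the levels was 1.94 with a counting interval of 1.65 to 2.28. Zbtb37, a zinc finger gene on the other strand that overlaps its first bases, stood at 7.34 and 6.80 FPKM. Whether the counting used strand is not given in the sources used here, so reads in the overlap cannot be told apart.

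Snhg11 (chr2:158375638-158386145, plus strand), known for its expression in neurons and annotated as protein-coding in GENCODE M21, stood at 17.95 FPKM in the group labelled HSF V30M and 7.26 FPKM in the group labelled HSF WT. Its log2 ratio was 1.20, percentile 96.9, with a counting interval of 1.83 to 3.34 around a ratio of 2.47. Neuron markers were uneven between the same groups. Their summed level was 115 and 64.4 FPKM, and 5 of the 7 with a mean of at least 1 FPKM were higher in the group labelled HSF V30M. Uchl1, at 86.95 against 43.4 FPKM, made up most of both sums. Of these 7, 2 passed the 1.5-fold limit upwards, Uchl1 and Tubb3, and 0 downwards. Tubb3, a neuronal tubulin, stood at 9.68 against 1.14 FPKM, whereas Stmn2, a growth cone protein, stood at 8.45 against 11.7 FPKM. The part of neuronal RNA in the Snhg11 difference was not tested.

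Snhg3 (chr4:132348014-132353686, minus strand), the host of the paired snoRNAs Snora73a and Snora73b, had 13.95 FPKM in the group labelled HSF V30M and 8.33 FPKM in the group labelled HSF WT. The log2 ratio of 0.68 passed the 1.5-fold limit, but the counting interval of the ratio, 0.951 to 2.95, included 1. Its reads lie among those of other genes. Rcc1, the nucleotide exchange factor of Ran, overlaps it on the same strand and stood at 4.42 and 7.18 FPKM, a log2 ratio of -0.59. Gm17300, a lincRNA named here after its values were seen, overlaps it on the other strand and stood at 149 and 94.0 FPKM. How the counting divided reads among these genes was not tested.

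Snhg12 (chr4:132308623-132311024, plus strand) lies 36989 bases from Snhg3 on the same chromosome, on the other strand. It stood at 81.4 FPKM in the group labelled HSF V30M and 61.4 FPKM in the group labelled HSF WT. Its log2 ratio of 0.40 was within the 1.5-fold limit, and the counting interval of its ratio was 1.12 to 1.57. Snhg6 (chr1:9941959-9944118, minus strand), host of Snord87, was inside the limit as well, with 6.00 and 4.14 FPKM and a log2 ratio of 0.45. Its counting interval, 0.742 to 2.83, included 1.

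Snhg5 (chr9:88521050-88522929, minus strand), the U50 host gene, was lower in the group labelled HSF V30M, at 6.32 FPKM against 10.3 FPKM. The log2 ratio was -0.63, percentile 7.68, and the ratio of the levels was 0.613 with a counting interval of 0.385 to 0.978. Snhg8 (chr3:123507552-123508404, minus strand), host of Snora24, stood at 35.7 and 42.2 FPKM, a log2 ratio of -0.24. Its interval of 0.685 to 1.04 included 1. Thus the 5 genes that share the TATA and pyrimidine marks were not on one side, since Gas5, Snhg1 and Snhg12 were higher in the group labelled HSF V30M and Snhg5 and Snhg8 lower.

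**Figure D2:**
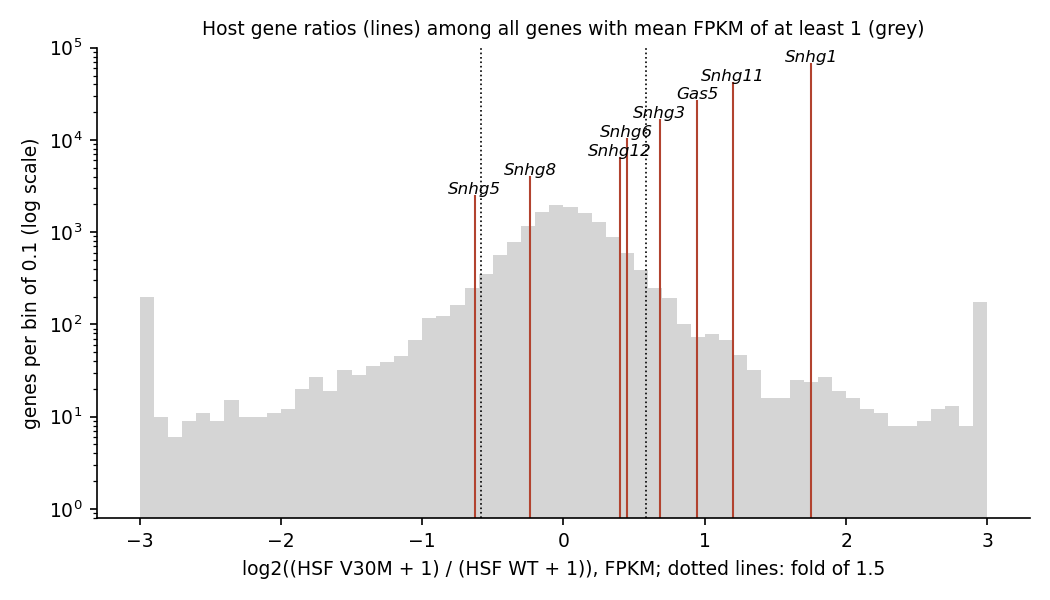
Log2 ratio of each host gene (red lines), the group labelled HSF V30M over the group labelled HSF WT, on the histogram of 15620 genes (grey; log scale of genes per bin; the end bins also hold genes beyond the axis). Line heights only keep the names apart; 4 genes lie right of the upper dotted line and Snhg5, at -0.63, lies left of the lower.

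By level, the order in the group labelled HSF V30M was Snhg1, Gas5, Snhg12, Snhg8, Snhg11, Snhg3, Snhg5 and Snhg6. In the group labelled HSF WT the first 4 came in the same order, followed by Snhg5, Snhg3, Snhg11 and Snhg6. Neighbours could not be separated by counting error for Snhg11 and Snhg3 or for Snhg5 and Snhg6 in the group labelled HSF V30M, nor among the last 4 in the group labelled HSF WT.

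Values of the snoRNA genes themselves are less secure than those of their hosts. FPKM divides by an effective length close to 0 for genes shorter than a library fragment, so a few fragments give a large FPKM value. Levels of different snoRNAs are therefore not compared, and their fragment numbers are approximate. Of the 31 genes, 6 were listed at 0 in both groups and 25 had a mean of at least 1 FPKM. Among these 25, 18 were higher in the group labelled HSF V30M and 7 lower, and 12 and 3 passed the 1.5-fold limit. The background is high here, since of 343 other snoRNA genes 70% were higher and 30% lower, and 52.2% passed the limit upwards and 18.7% downwards. Their median log2 ratio was 0.72, against 0.43 for the snoRNAs of the 8 hosts. The count of 12 includes Gm24453 of Snhg1, with about 1 fragment, and the count of 3 includes Gm25129 of Snhg11, with 1 and 2 fragments. The counts of 18 and 12 also include both overlapping entries of Snord80 in Gas5 and both of Snora16a in Snhg12. Each of these loci is thus counted more than once.

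Inside Gas5 the snoRNA genes did not share a direction. Gm26224 stood at 11394 FPKM in the group labelled HSF V30M and 2871 FPKM in the group labelled HSF WT, a log2 ratio of 1.99. Mir5117, which GENCODE types as a snoRNA in spite of its name, had the widest gap, 9975 against 990 FPKM, or 3.33 on the log2 scale. Gm22357 went the other way, with 7797 against 19056 FPKM and a log2 ratio of -1.29, as did Gm22489, with 4523 against 13418 FPKM and -1.57. Snord47, at 8218 and 7333 FPKM, and Gm25789, at 3044 and 3123 FPKM, were nearly level.

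Snord22, a box C/D snoRNA that takes part in cleavage of the ribosomal RNA precursor, had the highest fragment number of the 31 in the group labelled HSF V30M, about 9414 to 11082, and 4991 to 6720 in the group labelled HSF WT. Its values were 62714 and 46591 FPKM, a log2 ratio of 0.43 beside 1.75 for its host Snhg1. Of the other 7 snoRNA genes of Snhg1, 3 were listed at 0 in both groups (Gm22744, Gm22680 and Gm23246). Gm25894 stood at 9970 and 5794 FPKM.

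In Snhg12 the box H/ACA genes Snora44 and Snora16a were wide apart. Snora44 stood at 6609 FPKM in the group labelled HSF V30M and 1552 FPKM in the group labelled HSF WT, a log2 ratio of 2.09, and the better covered of the 2 overlapping Snora16a entries at 4532 and 1506 FPKM. Snord99 stood at 3812 and 1803 FPKM, and Snora61 at 7438 and 7866 FPKM. Snora24, the only snoRNA of Snhg8, stood at 1195 and 434 FPKM, a log2 ratio of 1.46, whereas its host stood at -0.24.

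The Snora73 pair of Snhg3, which takes part in making the small ribosomal subunit's RNA, differs at 7 of 205 bases, so the split of reads between its members is uncertain. Snora73b stood at 8716 FPKM in the group labelled HSF V30M and 11718 FPKM in the group labelled HSF WT, and Snora73a at 4705 and 4024 FPKM. Summed, the log2 ratio of the pair was -0.23. Snord87 of Snhg6 stood at 895 and 944 FPKM. Both Snord50 genes of Snhg5 were at 0 in both groups, where 3 fragments would have given 106 FPKM in the group labelled HSF V30M and 149 FPKM in the group labelled HSF WT.

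**Figure D3:**
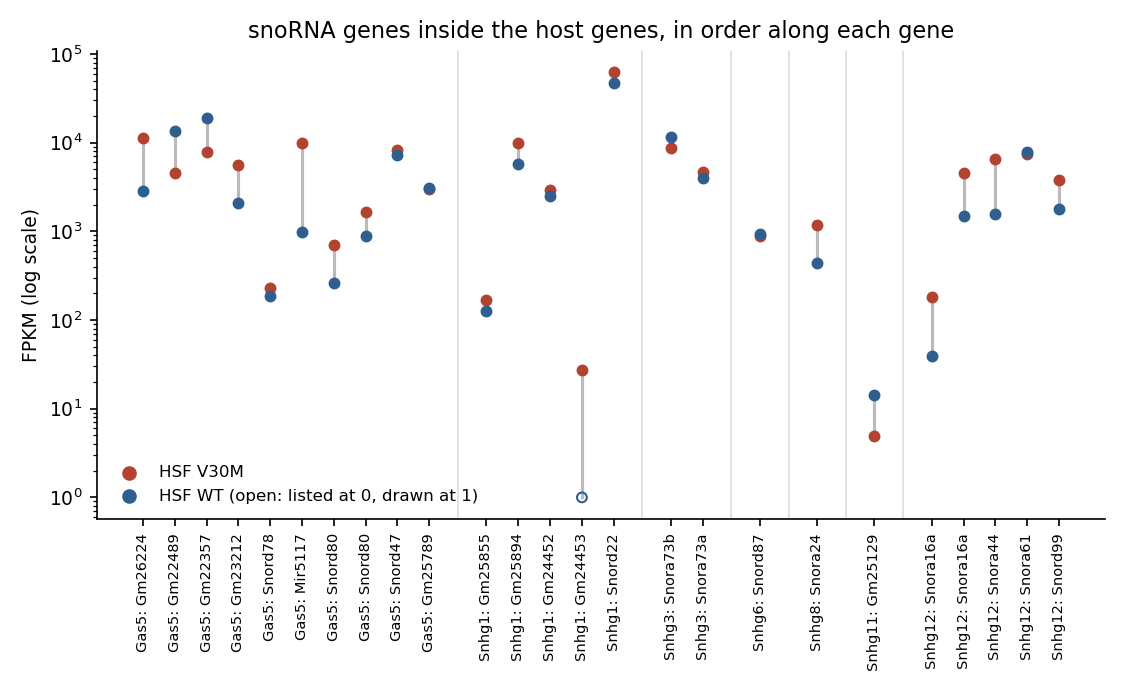
FPKM (log scale) of the 25 snoRNA genes with a mean of at least 1 FPKM, in order along each host gene, in the groups labelled HSF V30M (red) and HSF WT (blue). Inside Gas5 some genes are higher in one group and some in the other, and Snord22 of Snhg1 stands at 62714 and 46591 FPKM.

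Where host and snoRNA reads meet depends on the annotation. In Gas5 all 10 snoRNA genes lie whole within an exon of at least 1 annotated transcript, and 16 of its 25 transcripts hold one. The same holds for 8 of 8 in Snhg1, 5 of 5 in Snhg12, 2 of 2 in Snhg5, 1 of 1 in Snhg8 and 1 of 2 in Snhg11. In Snhg3 and Snhg6 no snoRNA gene lies whole within an exon. Reads from a snoRNA could thus be credited to 6 of the hosts, and their part in the host levels was not tested.

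**Figure D4:**
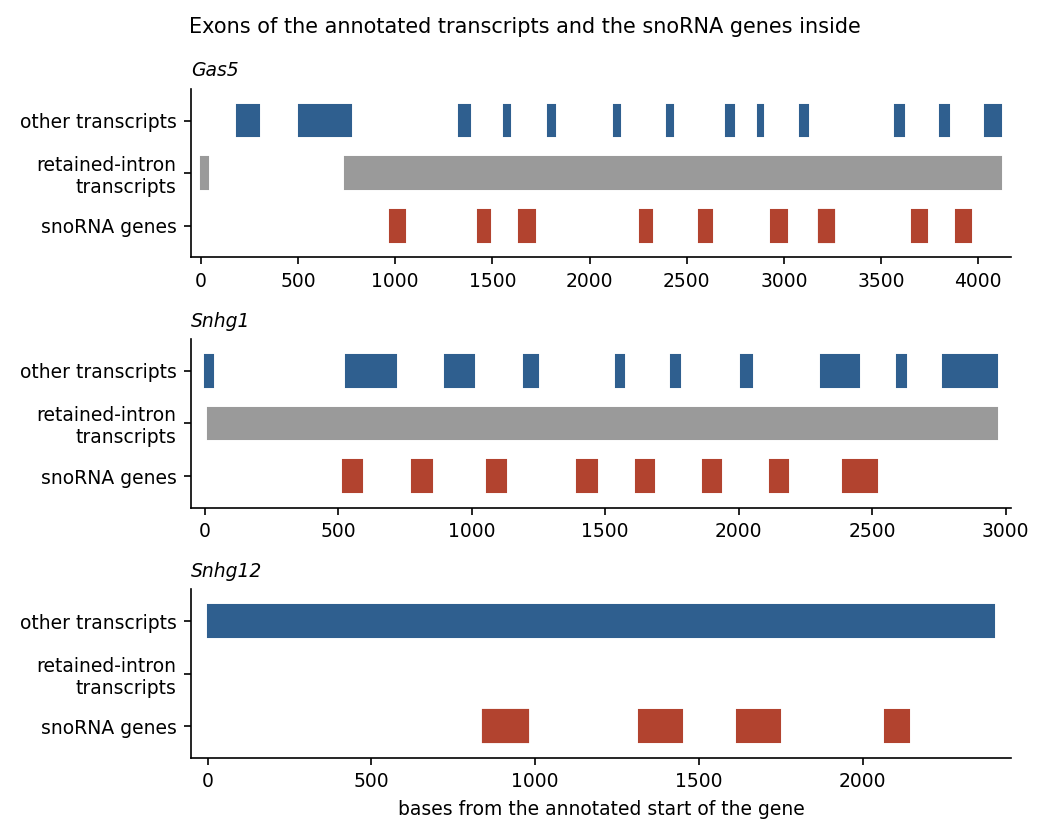
Union of the exons of retained-intron transcripts (grey) and of the other transcripts (blue), with the snoRNA genes (red), against bases from the annotated gene start for Gas5, Snhg1 and Snhg12. Retained-intron transcripts span the snoRNA genes in Gas5 and Snhg1, and Snhg12 has no transcript of that type.

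Genes that act with the hosts or share their features were described from lists. The box C/D and H/ACA particle proteins and their assembly factors, 18 genes, were higher in the group labelled HSF V30M for 7 and lower for 11, with none past the 1.5-fold limit. Nop56, a core protein of box C/D particles, stood at 31.2 and 23.0 FPKM, and Dkc1, the pseudouridine synthase of H/ACA particles, at 7.54 and 11.2 FPKM. The list's median log2 ratio was -0.11.

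Nonsense-mediated decay factors, 16 genes, were higher for 5 and lower for 11, with 1 past the limit each way and a median of -0.12. Upf1, the central helicase of the pathway, stood at 9.28 FPKM in the group labelled HSF V30M and 6.36 FPKM in the group labelled HSF WT. Smg9, which acts with the Smg1 kinase, stood at 15.8 and 6.79 FPKM, and Magohb, of the exon junction complex, at 2.66 and 5.37 FPKM.

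Cytosolic ribosomal protein genes share the pyrimidine start at the level of their mRNAs. Of 79 with a mean of at least 1 FPKM, 33 were higher in the group labelled HSF V30M and 46 lower, 6 passed the limit upwards and none downwards, and the median was -0.06. In the 17 other translation genes with such starts, 5 were higher and 12 lower, none passed the limit upwards and 2 downwards, with a median of -0.12. Npm1, a nucleolar chaperone, stood at 17.4 and 28.8 FPKM.

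The mTOR pathway, which controls translation of RNAs with pyrimidine starts, was represented with Myc and Larp1 by 14 genes, 9 higher and 5 lower in the group labelled HSF V30M, none past the limit, median 0.04. Larp1, which binds such starts, stood at 16.4 and 11.6 FPKM. The glucocorticoid receptor and its responsive genes were listed because Gas5 RNA is known to bind that receptor. Of these 8 genes, 7 were higher in the group labelled HSF V30M and 5 passed the limit upwards, with a median of 0.70. Over all 15620 genes the shares were 50.4% and 8.22%. Like the other lists, this one was chosen with earlier results of these data known. Per1, a clock gene, stood at 34.5 and 13.3 FPKM and Tsc22d3, a glucocorticoid-induced leucine zipper gene, at 84.8 and 37.7 FPKM, while the receptor gene Nr3c1 stood at 37.4 and 38.2 FPKM.

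**Figure D5:**
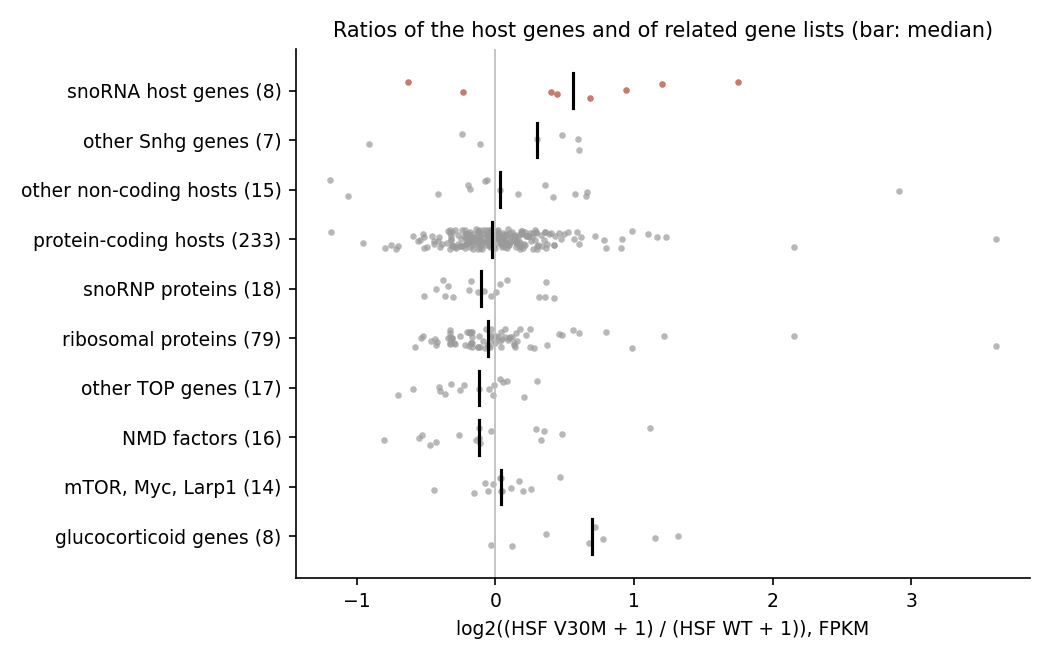
Log2 ratio of (FPKM + 1), the group labelled HSF V30M over the group labelled HSF WT, for each gene of a list (points; number with a mean of at least 1 FPKM in brackets) and the list median (black bar). The medians are 0.56 for the snoRNA host genes, 0.70 for the glucocorticoid genes and -0.06 for the ribosomal proteins.

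Markers of other cells also differed between the same groups. Erythrocyte markers were higher in the group labelled HSF V30M for 6 of 6 genes, with summed levels of 291 and 101 FPKM. Of 6 neutrophil markers 5 had a mean of at least 1 FPKM, all higher, and the list summed to 103 and 24.9 FPKM. Skeletal muscle markers were lower for 6 of 6, summing to 42.2 and 157 FPKM, and adipocyte markers for 6 of 6, summing to 2318 and 3200 FPKM. B cell markers summed to 2.34 and 22.7 FPKM and T cell markers to 3.08 and 10.8 FPKM, with no defining marker of either at 0. The part of these cells in the host gene differences was not tested, and in bulk RNA fewer cells of a type and less RNA per cell cannot be told apart.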

How the data were processed

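Total RNA of 4 mouse sciatic nerve samples, 2 per group by the labels, was sequenced on Ion Torrent libraries. The methods give a sample number for the sequencing without saying whether it is per group, and nothing says whether each sample is 1 animal. The authors aligned reads to GRCm38 (C57BL/6J), and their processing notes name STAR, Cufflinks and Cuffdiff, versions not given in the sources used here. The deposited FPKM values, written with decimal commas, are 1 Cuffdiff estimate per gene and group, so no test, SD or result per sample was possible. The table's own fold changes, p-values and q-values were not used. Of 50593 genes, 23 with too many alignments were left out.

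The 8 host genes and all gene lists were chosen with earlier results of these data known. Ratios are log2 of (FPKM + 1), the limit is 1.5-fold, and a mean of at least 1 FPKM was required of genes in any count. Genes named are every host gene, the snoRNA genes inside them, overlapping or adjacent genes, and the 2 highest and 2 lowest of a list, not all of which are printed. Markers were named as defining genes, and 1 of them and the sums that hold it are not reported here. SnoRNA genes, exons and transcripts came from GENCODE M21, which held 50369 of the gene identifiers and lacked 224.

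Depth was read after the values were seen. With a fragment length of mean 200 and SD 80 bases, the values of genes with the fewest fragments fell on 2 steps per group. Of 487 such values in HSF V30M, 94.7% lay within 5% of a step, and of 975 in HSF WT, 98.6% within 2%. In each group 2 steps were sought, and the values counted came from a window around them. The tolerance also differed between groups, so these shares are a description and do not test the number of steps. The worth of 1 fragment gave a range of fragment numbers for each value over the shortest and longest transcript and both libraries, and its lowest number gave the 95% intervals. A floor is 3 fragments. For genes shorter than 200 bases the numbers are approximate, with steps 6.45% and 7.24% too high at 107 bases. Scripts ran in Python 3.11.15 with numpy 2.4.6, pandas 2.3.3 and scipy 1.17.1, and were tested on simulated data. Other pseudocounts, minimum levels, scalings and folds were tried.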

Additional observations from a re-analysis of the deposited data

How the results depend on the processing

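No paired analysis was possible because each group has a single deposited value, which is also why no fit per sample and no left-out sample was run. The log2 ratios of the 8 host genes moved by less than 1 counting standard error in all 32 recalculations with another pseudocount or scaling, Gas5 between 0.94 and 0.97, Snhg1 between 1.75 and 1.78, Snhg11 between 1.20 and 1.31, and Snhg5 between -0.71 and -0.61. The scaling factors were 0.0036 (median of ratios) and -0.0232 (sum of protein-coding genes) on the log2 scale. Small moves were therefore largely fixed by these settings and say nothing about the spread between mice. With a limit of 2-fold in place of 1.5-fold, which is stricter by construction, 2 host genes passed it upwards in place of 4 and 0 downwards in place of 1. Of 100 recalculated medians of the other lists, 84 moved by less than 0.1, 16 moved further and 0 changed sign while past the limit. With no minimum level the median of the other Snhg genes was 0.10. Counting error limits Snhg3, Snhg6 and Snhg8, whose intervals include 1, and no value has a replicate.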

Other observations

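Other host genes were described in the same way. Of 8 other Snhg genes, 7 had a mean of at least 1 FPKM, 4 of them higher in the group labelled HSF V30M and 3 lower, with a median log2 ratio of 0.30. Of these 7, 2 passed the 1.5-fold limit upwards and 1, Snhg7, downwards. Snhg4 stood at 398 FPKM in the group labelled HSF V30M and 262 FPKM in the group labelled HSF WT, Snhg15 at 20.2 and 13.0 FPKM, and Snhg7 at 17.0 and 32.7 FPKM. The identifier of Snhg4, which passed the limit upwards, is not in the annotation used, so its transcript length could not be checked. The only annotated transcript of Snhg7 is 139 bases long, so its values are as insecure as those of the snoRNA genes. At 137 bases, 3 fragments would have given 15.3 FPKM in the group labelled HSF V30M and 21.4 FPKM in the group labelled HSF WT. Snhg17, which lies 14057 bases from Snhg11 on chromosome 2, stood at 12.95 and 8.997 FPKM.

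Among 15 other non-coding genes that hold a snoRNA gene, 8 were higher and 7 lower in the group labelled HSF V30M, with a median of 0.03. The 1.5-fold limit was passed upwards by 3 of the 15 and downwards by 2. AI506816 stood at 12.1 and 0.737 FPKM, and Dancr, a non-coding RNA known for holding back differentiation, at 1.20 and 4.04 FPKM. Of 233 protein-coding host genes 110 were higher and 123 lower, with 14 past the 1.5-fold limit upwards and 7 downwards and a median of -0.03. The ribosomal protein genes Rps3a1, at 275 and 21.6 FPKM, and Rpl21, at 172 and 37.9 FPKM, led that list, and both have near-identical copies in the genome, so their values are uncertain.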
